A study of Mus musculus with 8 samples.

Results

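The genes described here are 32 interferon-stimulated genes of the mouse, measured by sequencing of polyadenylated RNA in hearts after myocardial infarction (MI) and after sham surgery. They were listed by name as known targets of interferon and related sensors. Of the 32 genes, 29 had a locus of their own among the 35299 loci of the deposited table, and all 29 passed the filter on low values (a mean of at least 10 normalised reads over all 8 samples) that left 19186 loci to be tested. The other 3 were Irf9, Ifit2 and Rtp4. Each lies in a locus that also holds exons of another gene (Rnf31, Ifit3b and Gm45338), so their own levels could not be separated.

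Both groups consisted of C57BL/6J mice given as 12 weeks old, with 4 samples each, numbered as replicates, and tissue came from the border zone of the heart 2 weeks after surgery. The MI group had undergone infarction, the death of heart muscle after a coronary artery is blocked, and its border zone is the muscle beside the dead area. The Sham group had a mock operation, and its tissue is the matching region. No genetic change or drug is named for either group, and the sex of the animals is not given in the sources used here. Titles and the treatment field give the same groups, but MI samples are called Sham in their source field, and the region given in 4 descriptions goes against the title: for MI replicates 1 to 3 it is that of a sham infarct and for Sham replicate 4 that of an infarct. The 4 Sham titles carry a remark of reanalysis that the MI titles lack, so an effect of origin and one of infarction cannot be told apart.

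Interferons are secreted proteins, and those of type I are released by cells that sense foreign or misplaced nucleic acid. Type I interferons bind a receptor of the chains Ifnar1 and Ifnar2, whose kinases Jak1 and Tyk2 phosphorylate Stat proteins, Stat2 among them. With Irf9 these form a complex that binds the interferon-stimulated response element (ISRE) in promoters and switches on genes whose products sense, bind or destroy viral RNA and proteins. Interferon gamma acts through another receptor and a different promoter element, the gamma-activated site. In the infarcted heart the response is known from macrophages that take up DNA of dying cells, with Irf3 as the factor that starts interferon production.

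Sequencing depth was 108 to 161 M reads assigned to loci in Sham and 165 to 190.2 M in MI, without overlap. Values are normalised reads, the count of reads at a locus divided by 1 size factor per sample. Cardiomyocyte markers were abundant in every library, with a summed level of 6840067 to 7534373 in Sham and 3981960.4 to 5376557 in MI. On the leading principal component of all tested loci (61.9% of the variance), MI replicate 2 lay at 34.8, nearer to Sham (-65.2 to -42.6) than the other MI libraries (62.4 to 63.2).

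Among the interferon-stimulated genes it was Sham replicate 1 that stood apart. It was the highest of the 4 Sham libraries in 24 of the 29 genes (82.8%, against 23.8% of all tested loci), and Sham replicate 4 was the lowest in 20 (69.0%, against 27.1%). The median over the 29 genes of the log2 value, taken relative to each gene's Sham mean, was 0.23 in Sham replicate 1, -0.0047 in replicate 2, -0.038 in replicate 3 and -0.19 in replicate 4. In the MI libraries it was 0.35, 0.41, 0.46 and 0.43 for replicates 1 to 4, above every Sham library. Over all tested loci the same medians ran from -0.041 to 0.033. Summed macrophage markers stood at 33558, 28581, 32504 and 24789 in Sham replicates 1 to 4, so that they too were highest in replicate 1 and lowest in replicate 4. The same held for fibroblast markers, at 117303, 100325, 116812 and 93707, and for the list of plasmacytoid dendritic cell markers, at 17873, 16922, 14651 and 13827. Endothelial markers set replicate 1 apart as well, at 185629, 155373, 147785 and 155399. Other sums ran differently, with Sham replicate 4 the highest. Neutrophil markers stood at 548, 344, 394 and 687, T and NK cell markers at 275, 189, 205 and 287, and B cell markers at 224, 189, 194 and 333. Cardiomyocyte markers were lowest in replicate 1, at 6840067, 7169035, 7534373 and 7529323. The part of these cell types in the levels of the interferon-stimulated genes was not tested.

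**Figure D1:**
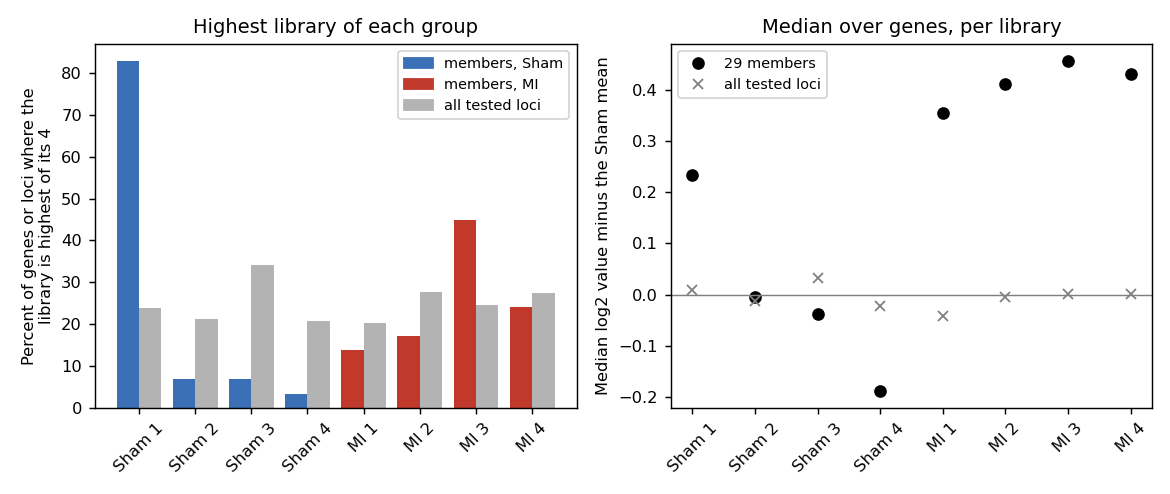
Left, percent of the 29 interferon-stimulated genes (blue for Sham and red for MI) and of all 19186 tested loci (grey bars) for which a library was the highest of the 4 in its group, and right, median over genes of the log2 value minus the Sham mean, for the 29 genes (circles) and all tested loci (crosses). Sham replicate 1 was highest for 82.8% of the 29 genes, and its median of 0.23 lay below the 0.35 to 0.46 of the MI libraries.

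Of the 29 interferon-stimulated genes with a locus of their own, 17 were higher in MI than in Sham and 0 were lower, at an adjusted p under 0.05 (limma-trend on log2 of the value plus 1, Benjamini-Hochberg over all tested loci). Over all tested loci, 20.8% were higher and 20.1% lower by the same rule, and of the named protein-coding genes 25.0% were higher. The 17 were Irf7, Stat2, Ddx58, Dhx58, Zbp1, Eif2ak2, Oas1a, Oas3, Oasl2, Ifit1, Ifit3, Mx1, Mx2, Usp18, Parp9, Samd9l and Xaf1. Differences were modest for most. At least a 2-fold rise was found among the called genes in 3 of the 29, Mx1, Oas3 and Zbp1. That share is close to the 9.04% of all tested loci that passed in the same way. The median log2 difference over the 29 genes was 0.44, and over all tested loci it was -0.017. At an unadjusted p under 0.05, limma had 20 of the 29 higher and 0 lower. The share of all loci at an unadjusted p is not given here for any tool, so the unadjusted counts have no background beside them. With whole reads, which could be recovered from the table, edgeR called 18 higher and 0 lower (20.9% of all loci higher and 20.1% lower, and 20 and 0 members at an unadjusted p under 0.05), and DESeq2 called 19 and 0 (21.6% and 21.4% of all loci, and 21 and 0 unadjusted). All 4 MI libraries lay above all 4 Sham libraries in 17 genes, against 19.7% of all tested loci, and below them in 0, against 20.0%. The 17 without overlap were the called genes other than Ifit3, together with Dtx3l, which was not called.

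The counts depended on how libraries were scaled. Scaled to the library total, 27 of the 29 were called higher and 0 lower, but so were 44.4% of all loci, with 7.81% lower (8525 higher and 1498 lower, against 3999 and 3855 with the deposited scaling), and that scaling shifted the median of all loci up by 0.30. Leaving mitochondrial reads out of the total gave 25 members, with 33.2% of all loci higher and 11.2% lower (6368 and 2145) and a shift of 0.19. TMM and upper-quartile scaling shifted the median of all loci by 0.028 and 0.014. Each called 19 members higher, the 17 together with Bst2 and Dtx3l. Without Sham replicate 1 there were 20 calls, with Bst2, Ifi44 and Isg15 added. Without Sham replicate 4 there were 15, with Mx2 and Xaf1 lost, and without MI replicate 2 the same 17 were called. Of the 17, 14 were called in all 8 fits that left out 1 library, and the exceptions were Mx2, Samd9l and Xaf1. For TMM and upper-quartile scaling and for the fits that left out 1 library, the share of all loci called is not given here. Whether these changes in count are particular to the members therefore cannot be read from them.

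**Figure D2:**
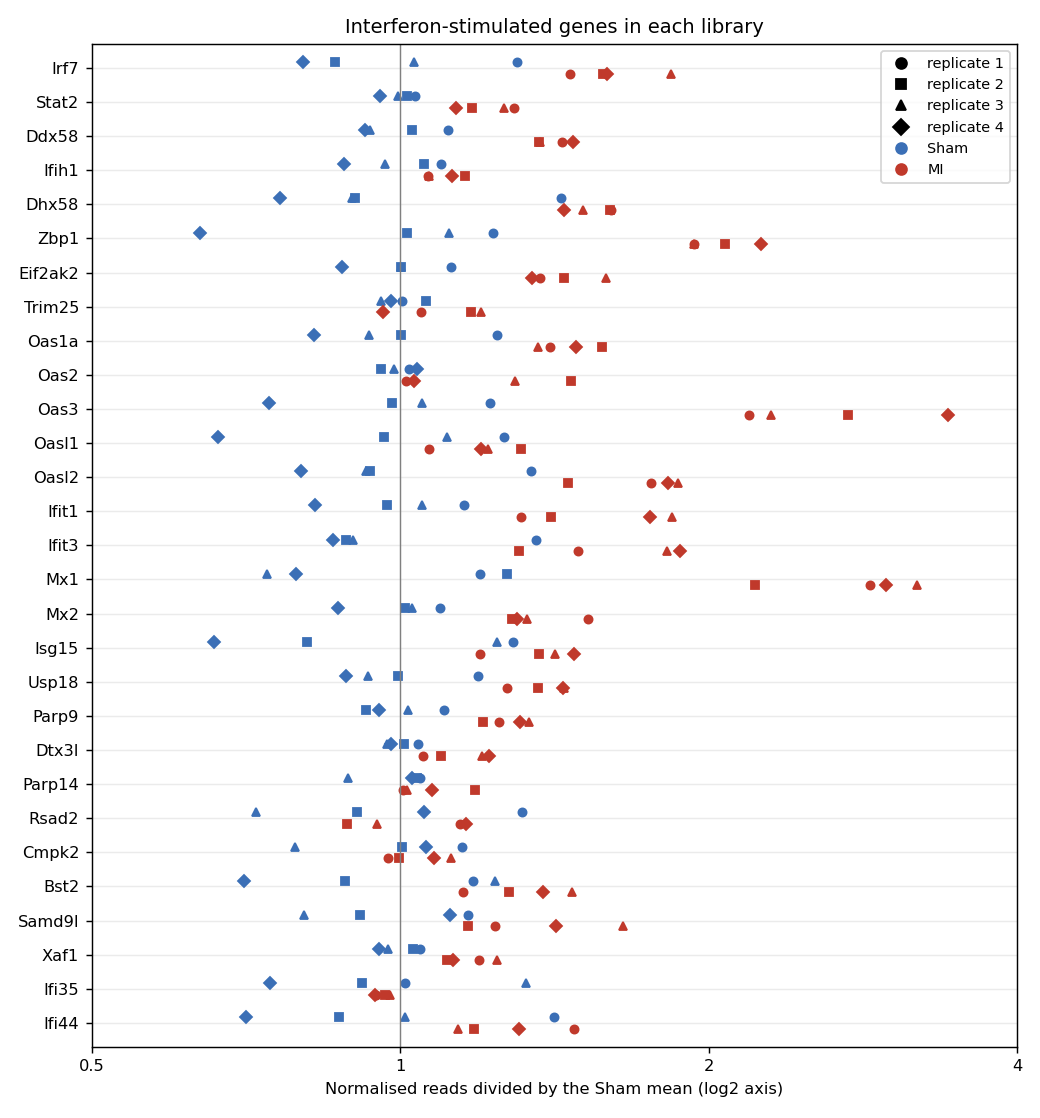
Level of each of the 29 interferon-stimulated genes in each library (points, Sham blue and MI red, with a symbol per replicate number), as normalised reads divided by the gene's Sham mean on a log2 axis, with genes in order of role. MI libraries were higher for most genes, with the widest separation in Mx1, Oas3 and Zbp1, and Sham replicate 1 was the highest Sham library in 24 of 29.

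Markers of several cell types differed between the groups, and in whole tissue more cells of a type and more RNA per cell cannot be told apart. The counts of markers called stand beside the 20.8% of all tested loci that were higher and the 20.1% that were lower. Of the 10 macrophage and monocyte markers with a tested locus (of 14 listed), 9 were higher in MI. The other, Cd163, was lower without passing the threshold (log2 difference -0.51 ± 0.19, limma adjusted p = 0.0536). The summed level of the 10 was 29858 ± 4001 (SD, n = 4) in Sham and 46821 ± 5032 in MI, 1.57-fold higher. A 2-sided exact permutation test gave p = 0.0286, or 0.0357 after adjustment over 10 library measures. The smallest p that 4 against 4 can give is 0.0286. Neutrophil markers (4 of 5 higher) summed to 344 to 687 in Sham and 933 to 3259 in MI, with the highest in MI replicate 2. T and NK cell markers (6 of 7 higher) summed to 189 to 287 and 391 to 516. Fibroblast markers (7 of 7 higher) summed to 93707 to 117303 and 382138 to 605013, and cardiomyocyte markers (5 of 7 lower) were lower in every MI library than in any Sham library. B cell markers (4 of 4 higher) summed to 189 to 333 and 265 to 748, with overlap, and endothelial markers (1 of 8 lower) also overlapped between the groups. Siglech, a marker of plasmacytoid dendritic cells, which are strong producers of type I interferon, lay at 43.0, 15.9, 19.3 and 39.4 in Sham and 25.8, 34.6, 38.7 and 36.6 in MI, and the groups overlapped. Of the 5 tested markers on the list of that cell type, 3 were higher, and the list summed to 13827 to 17873 in Sham and 18497 to 21135 in MI, most of it Tcf4, which other cells express. No marker was at 0 in any library. The part of these cells in the differences of the interferon-stimulated genes was not tested.

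For 23 of the 32 genes the RefSeq promoter table held a window of 300 bases, from 250 before to 50 after the start of transcription. It held none for Parp14, Oas2, Dhx58, Usp18, Mx2, Mx1, Zbp1, Rtp4 and Parp9. The core of the ISRE was searched as GAAANNGAAA on both strands, where N is any base, and matches may overlap. The core was present in 11 of the 25 windows of these genes (44.0%) and in 1131 of 32851 windows of all genes (3.44%). The gamma-activated site, searched as TTCNNNGAA, was present in 5 of 25 (20.0%) and in 8.30% of all windows. A match describes the letters of these windows and does not show that a factor bound there. In Ddx58, Eif2ak2 and Ifih1 the ISRE core lay after the start of transcription. For the other 8 genes the stretch around it is printed here 5′ to 3′ on the gene's strand, to show how the known interferon element sits in genes described next. Capitals mark the core (TTTCNNTTTC is its reverse complement), and positions are in GRCm38.p6. For Bst2 and Stat2 the bases after the RefSeq start were not found in a GENCODE transcript, so the place of their core relative to the start is less certain.
Isg15 (chr4:156200850-156200921, minus strand): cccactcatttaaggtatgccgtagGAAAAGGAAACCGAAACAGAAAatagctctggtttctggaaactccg
Oas1a (chr5:120907526-120907570, minus strand): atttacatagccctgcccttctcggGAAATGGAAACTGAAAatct
Oas3 (chr5:120777700-120777759, minus strand): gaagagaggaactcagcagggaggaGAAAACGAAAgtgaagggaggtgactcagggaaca
Ifit1 (chr19:34640760-34640838, plus strand): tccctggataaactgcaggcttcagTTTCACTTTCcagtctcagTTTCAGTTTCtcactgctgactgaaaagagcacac
Ifit3 (chr19:34583348-34583441, plus strand): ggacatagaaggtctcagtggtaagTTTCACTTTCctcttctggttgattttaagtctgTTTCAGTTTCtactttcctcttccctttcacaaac
Bst2 (chr8:71537562-71537627, minus strand): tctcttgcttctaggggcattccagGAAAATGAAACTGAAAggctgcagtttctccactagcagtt
Rsad2 (chr12:26456538-26456597, minus strand): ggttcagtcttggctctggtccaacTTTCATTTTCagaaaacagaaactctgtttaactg
Stat2 (chr10:128270251-128270310, plus strand): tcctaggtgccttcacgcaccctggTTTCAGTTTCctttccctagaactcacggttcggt

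Isg15 carried 3 overlapping cores, Oas1a and Bst2 carried 2 overlapping cores, and Ifit1 and Ifit3 carried 2 separate ones. Among the 11 genes with the core, 7 were higher in MI and the median log2 difference was 0.50, over a range of 0.074 to 1.39. Among the 10 genes of their own locus whose window lacked it, 4 were higher and the median was 0.26, over a range of -0.030 to 0.81. Genes with the core ranged from Oas3, which rose more than 2-fold, to Rsad2, whose groups overlapped. Beside these counts, 17 of all 29 genes and 20.8% of all tested loci were higher. Mx1 and Zbp1, which had no window, are in neither set. The difference between these sets of genes was not tested.

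Irf7 and Stat2, the transcription factors of the set, both rose. Irf7 amplifies the response by switching on further interferon genes, and Stat2 is the part of the ISRE-binding complex that activates transcription. Irf7 (mm9 chromosome 7, 148449088 to 148452300) stood at 1929, 1282, 1531 and 1194 normalised reads in Sham replicates 1 to 4 and at 2175, 2341, 2726 and 2363 in MI. The highest Sham library, replicate 1, lay close to the lowest MI library, and the others were well apart. Its log2 difference was 0.71 ± 0.14 (SE, n = 4 per group, limma adjusted p = 0.00253). Stat2 (chromosome 10, 127707632 to 127729905) stood at 3205, 3149, 3083 and 2963 in Sham and 4004, 3645, 3909 and 3511 in MI, a log2 difference of 0.28 ± 0.069 (limma adjusted p = 0.00823). The Sham libraries of Stat2 spanned a narrow range and all lay below the MI libraries. Irf9, the DNA-binding partner of Stat2, shares a locus with Rnf31, and that locus held 6800.4, 6566, 6391 and 6313 in Sham and 6051, 6204, 6447 and 6446 in MI, with a log2 difference of -0.052 ± 0.060 (limma adjusted p = 0.52).

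Among the 6 nucleic acid sensors and their regulators, Ddx58, Dhx58, Zbp1 and Eif2ak2 rose, and Ifih1 and Trim25 did not pass the test. Ddx58 encodes RIG-I, which recognises the ends of viral RNA. Ddx58 (chromosome 4, 40150810 to 40186858) stood at 2471, 2279.9, 2075 and 2048 in Sham and 3189, 3028, 3039.7 and 3271 in MI (log2 difference 0.50 ± 0.079, limma adjusted p = 0.000665). Its MI libraries formed a tight group above all Sham libraries. Dhx58 encodes LGP2, a related helicase without a signalling domain that modulates the other RNA sensors. Dhx58 (chromosome 11, 100556198 to 100565585) stood at 379.6, 239, 238 and 202 in Sham and 425, 424, 399 and 382 in MI (log2 difference 0.66 ± 0.18, limma adjusted p = 0.013). Sham replicate 1 was just below the lowest MI library, while the other Sham libraries lay close together, well below. Of its exonic bases, 141 overlap an antisense transcript, Dhx58os, and the sources used here do not state whether reads were counted by strand.

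Zbp1 encodes a sensor of Z-form nucleic acid that can trigger cell death. Zbp1 (chromosome 2, 173032114 to 173044391) stood at 149, 123, 135 and 77.3 in Sham and 235, 251, 235 and 272 in MI, with means of 121 ± 31.2 and 248 ± 17.8 (SD, n = 4). All MI libraries lay above the highest Sham library, and Sham replicate 4 was far below the rest. The log2 difference was 1.07 ± 0.20 (limma adjusted p = 0.0018), a 2.05-fold ratio of means. Eif2ak2 encodes PKR, the kinase that halts translation on binding double-stranded RNA. Eif2ak2 (chromosome 17, 79247909 to 79283755) stood at 3212, 2869.8, 2874 and 2515 in Sham and 3928, 4146, 4551 and 3854 in MI (log2 difference 0.52 ± 0.089, limma adjusted p = 0.001), and the groups did not overlap. Ifih1 encodes MDA5, the sensor of long double-stranded RNA, and ranged over 1551 to 1929 in Sham and 1872 to 2035 in MI (log2 difference 0.15 ± 0.085, limma adjusted p = 0.198). Trim25, a ubiquitin ligase of the RIG-I pathway, ranged over 6303 to 6969.5 and 6323 to 7894 (log2 difference 0.13 ± 0.082, limma adjusted p = 0.242). For both, the groups overlapped, and a p above the threshold does not show that levels were equal.

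Of the 5 Oas genes, Oas1a, Oas3 and Oasl2 rose. Oas proteins are synthetases that, on binding double-stranded RNA, make short adenylate chains that start the decay of RNA. The Oas-like proteins Oasl1 and Oasl2 are their relatives. Oas3 (chromosome 5, 121203107 to 121227668) stood at 59.7, 47.8, 51.2 and 36.3 in Sham and 107, 133, 112 and 167 in MI, with means of 48.7 ± 9.70 and 129.7 ± 27.2 (SD, n = 4). Every MI library was well above every Sham library, and MI replicate 4 was the highest. The log2 difference was 1.39 ± 0.21 (limma adjusted p = 0.000576), a 2.66-fold ratio of means. Oas3 also had the lowest level of the 29 genes per length, at 9.66 ± 1.92 in Sham and 25.7 ± 5.39 in MI normalised reads per kilobase of exon. Oas2 lies 3309 bases from Oas3 on the same strand. Its level per kilobase was 475 ± 17.1 in Sham and 571 ± 104 in MI, many times that of Oas3. Oas2 (chromosome 5, 121180343 to 121199797) stood at 2122, 1994, 2053 and 2163 in Sham and 2111, 3057, 2699 and 2147 in MI (log2 difference 0.25 ± 0.12, limma adjusted p = 0.115). MI replicates 2 and 3 were above all Sham libraries and MI replicates 1 and 4 were among them.

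Oasl2 (chromosome 5, 115346943 to 115366962) stood at 1881, 1308, 1297 and 1121 in Sham and 2460.4, 2042, 2615 and 2559 in MI (log2 difference 0.81 ± 0.15, limma adjusted p = 0.00164). Sham replicate 1 was the highest Sham library by a wide gap, and the groups still did not overlap. Its neighbour Oasl1, 6286 bases away, ranged over 162 to 309 in Sham and 261 to 321 in MI, with overlap (log2 difference 0.30 ± 0.19, limma adjusted p = 0.236). Oas1a (chromosome 5, 121343012 to 121357516) stood at 526, 424, 394 and 348 in Sham and 593, 666, 577 and 628 in MI (log2 difference 0.55 ± 0.13, limma adjusted p = 0.00678), with no overlap. The value of Oas1a is uncertain as that of a single gene. Of the stretches of 100 bases in its transcripts, 40.9% also occur in other genes, mostly in Oas1g, so reads could be split between them. For Oas3, Oas2, Oasl1 and Oasl2 that share was 0.

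Both Ifit genes with a locus of their own rose. Ifit proteins bind foreign RNA, Ifit1 by a cap that lacks the marks of host messenger RNA, with Ifit3 as its partner. Ifit1 (chromosome 19, 34715379 to 34724499) stood at 885, 744, 806 and 634 in Sham and 1006, 1076, 1412 and 1343 in MI (log2 difference 0.65 ± 0.14, limma adjusted p = 0.00373). MI replicates 3 and 4 were the highest, and all MI libraries exceeded all Sham libraries. Ifit3 (chromosome 19, 34658019 to 34663472) stood at 1867, 1217, 1237 and 1184 in Sham and 2053, 1797, 2506 and 2578 in MI (log2 difference 0.71 ± 0.16, limma adjusted p = 0.00569). Here Sham replicate 1 exceeded MI replicate 2, and the other 3 Sham libraries lay close together and below all MI libraries. Ifit3 shares 31.7% of its stretches of 100 bases with its near copy Ifit3b, so its value may hold reads of both. The locus that holds Ifit2 with Ifit3b stood at 3475, 2980.3, 2921 and 2672 in Sham and 4137, 4001, 4919 and 4234 in MI, without overlap (log2 difference 0.52 ± 0.10, limma adjusted p = 0.00163).

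Mx1 had the largest log2 difference of the 29 genes. Mx proteins are dynamin-like GTPases that trap viral components, and most laboratory strains, C57BL/6J among them, are known to carry a defective Mx1 allele. Mx1 (chromosome 16, 97668642 to 97684513) stood at 95.5, 101, 59.1 and 63.1 in Sham and 229, 177, 254 and 237 in MI, with means of 79.8 ± 21.7 and 225 ± 33.4 (SD, n = 4). Sham replicates 1 and 2 were higher than replicates 3 and 4, and all MI libraries were well above them. The log2 difference was 1.51 ± 0.21 (limma adjusted p = 0.000355), a 2.82-fold ratio of means. Per kilobase of exon the level of Mx1 was low, at 24.7 ± 6.73 in Sham and 69.5 ± 10.3 in MI normalised reads. Mx2, its neighbour on chromosome 16, stood at 198, 183, 186 and 158 in Sham and 276, 233, 241 and 236 in MI (log2 difference 0.44 ± 0.13, limma adjusted p = 0.019). The groups of Mx2 did not overlap, but its call was lost without Sham replicate 4 and without MI replicate 1. Of the stretches of 100 bases in Mx1, 0.929% also occur in Mx2.

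**Figure D3:**
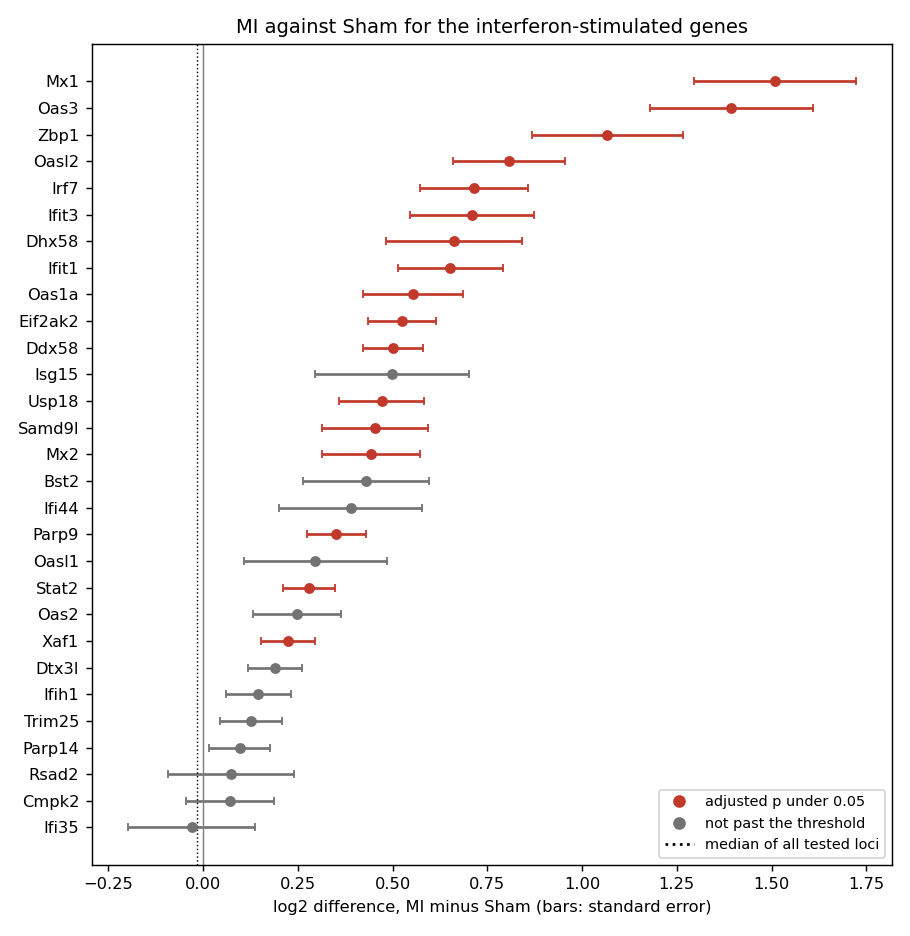
Log2 difference, MI minus Sham, of each of the 29 interferon-stimulated genes, as the limma estimate with its standard error (bars), ordered by size, with genes past the adjusted p of 0.05 in red and the median of all tested loci as a dotted line. Mx1 (1.51), Oas3 (1.39) and Zbp1 (1.07) lie to the right of the other genes, and only Ifi35 (-0.030) lies below 0.

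Isg15 is a ubiquitin-like protein that is linked to other proteins or secreted, and Usp18 removes it and also blocks the type I receptor. Isg15 (chromosome 4, 155573564 to 155574905) stood at 598, 377, 578 and 306 in Sham and 556, 635, 657 and 687 in MI (log2 difference 0.50 ± 0.20, limma adjusted p = 0.0722). Sham replicates 1 and 3 lay above the lowest MI library, and replicates 2 and 4 lay far below, so that the spread within Sham was wide. Isg15, whose printed sequence holds 3 overlapping cores, passed without Sham replicate 1, without Sham replicate 3 and under total scaling. Usp18 (chromosome 6, 121192296 to 121222724) stood at 636, 532, 497 and 473 in Sham and 679, 729, 772 and 769.6 in MI, without overlap (log2 difference 0.47 ± 0.11, limma adjusted p = 0.00688).

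Parp9 and Dtx3l encode a complex that modifies proteins with ADP-ribose and ubiquitin and is known to raise the response to interferon, and the related Parp14 is described with them. Parp9 and Dtx3l are transcribed away from each other, and their loci overlap at the 5′ ends. Parp9 (chromosome 16, 35938556 to 35972691) stood at 2601, 2185, 2399.9 and 2249.9 in Sham and 2943, 2841, 3153 and 3089.9 in MI (log2 difference 0.35 ± 0.077, limma adjusted p = 0.00444), and the groups did not overlap. Dtx3l (chromosome 16, 35926601 to 35939113) stood at 3289.8, 3183, 3068 and 3090.3 in Sham and 3325, 3459, 3792 and 3856 in MI, also without overlap, yet it missed the threshold (log2 difference 0.19 ± 0.072, limma adjusted p = 0.0553). Dtx3l passed with edgeR, DESeq2 and the TMM, upper-quartile and total scalings. The 334 exonic bases the 2 loci share are 8.15% of Parp9 and 5.97% of Dtx3l. Parp14 stood at 5413, 5369, 4599 and 5318 in Sham and 5201, 6115, 5255 and 5556 in MI, with overlap (log2 difference 0.10 ± 0.080, limma adjusted p = 0.367).

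Of the 7 other effectors with their own locus, Samd9l and Xaf1 rose. Samd9l restrains cell growth and blocks poxviruses. Samd9l (chromosome 6, 3322260 to 3349492) stood at 3018, 2368, 2089.5 and 2901 in Sham and 3209, 3018, 4280.0 and 3677 in MI (log2 difference 0.45 ± 0.14, limma adjusted p = 0.0238). MI replicate 2 exceeded Sham replicate 1 by less than 1 normalised read, and MI replicates 3 and 4 were the highest. Xaf1, a promoter of cell death, ranged over 1868 to 2049.5 in Sham and 2181 to 2438 in MI (log2 difference 0.22 ± 0.072, limma adjusted p = 0.0291). The calls of Samd9l and of Xaf1 were each lost in 4 of the 8 fits that left out 1 library.

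Rsad2 and Cmpk2 did not pass the test. Rsad2 encodes viperin, which makes a nucleotide that ends viral RNA chains, and Cmpk2 encodes the kinase that supplies its substrate. They lie 12783 bases apart on chromosome 12 and are transcribed away from each other. The window of Rsad2 holds the core printed above, and in that of Cmpk2 none was found. Rsad2 (chromosome 12, 27127618 to 27141296) stood at 4216, 2916, 2320.3 and 3389.9 in Sham and 3675, 2851, 3049 and 3718 in MI (log2 difference 0.074 ± 0.17, limma adjusted p = 0.753). Cmpk2 (chromosome 12, 27154080 to 27167216) stood at 1646, 1438, 1132 and 1519.9 in Sham and 1396, 1429.6, 1608 and 1547 in MI (log2 difference 0.071 ± 0.12, limma adjusted p = 0.658). In both genes Sham replicate 1 was the highest Sham library and replicate 3 the lowest, and without Sham replicate 3 the differences were -0.071 and -0.038.

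Bst2 encodes tetherin, which holds budding virus at the cell surface, and it had the highest level of the 29 genes per length, at 2765 ± 694 in Sham and 3649 ± 380.3 in MI normalised reads per kilobase. Bst2 (chromosome 8, 74058161 to 74061336) stood at 2494, 1869, 2618 and 1490.0 in Sham and 2439.8, 2703, 3118 and 2919.8 in MI (log2 difference 0.43 ± 0.17, limma adjusted p = 0.0593). Sham replicate 3 exceeded MI replicate 1, and Sham replicate 4 was the lowest library. Bst2 passed with DESeq2 and with the TMM, upper-quartile and total scalings. Ifi44 ranged over 380.0 to 759 in Sham and 613 to 795 in MI, and its highest Sham library was replicate 1 (log2 difference 0.39 ± 0.19, limma adjusted p = 0.124). Ifi35 ranged over 178 to 316 and 225 to 233, a log2 difference of -0.030 ± 0.17 (limma adjusted p = 0.904) that turned positive under total scaling (0.28). Of the exonic bases of Ifi35, 77.2% overlap Vat1 on the other strand, so without known strandedness its value cannot be read as Ifi35 alone. The locus that holds Rtp4, a chaperone of receptors, with Gm45338 stood at 869, 715, 776 and 716 in Sham and 1015, 1015, 1153 and 1123 in MI, without overlap (log2 difference 0.49 ± 0.10, limma adjusted p = 0.00244).

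The genes around this response were read from lists of the interferon pathway, whose counts stand beside the 20.8% of all tested loci that were higher and the 20.1% that were lower. Of 12 interferon ligands, 4 had a locus of their own and none reached the filter. Ifnk, Ifnl2 and Ifnl3 had 0 reads in every library, and Ifng had 1, 0, 2 and 1 reads in Sham replicates 1 to 4 and 3, 0, 1 and 2 in MI. For a library with 0 reads, the limit of 3 reads corresponds to between 1.99 and 4.73 normalised reads, which covers counting error only. The interferon beta and alpha genes have a single exon and could not be assigned by their introns, so they are not analysed here. A change in interferon RNA was therefore not detectable at this depth for those 4 genes.

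Among 8 tested receptor chains, kinases and Stats, 3 were higher and 2 lower, with a median log2 difference of -0.0050. Ifnar1, a chain of the type I receptor, stood at 4626, 4341, 3923 and 4383 in Sham and 6266, 5087, 5554 and 5973 in MI (log2 difference 0.40 ± 0.083, limma adjusted p = 0.00312). Jak1, the kinase both receptors share, stood at 27236, 31371, 29523 and 30310.1 in Sham and 18173, 22341, 20492 and 21387 in MI (log2 difference -0.53 ± 0.080, limma adjusted p = 0.000526). All MI libraries were above Sham for Ifnar1 and below Sham for Jak1. For the gamma receptor, Ifngr1 was higher (log2 difference 0.49 ± 0.11, limma adjusted p = 0.00491) and Ifngr2 lower (log2 difference -0.33 ± 0.082, limma adjusted p = 0.00837). Stat3 was higher (0.25 ± 0.073, limma adjusted p = 0.018), and the call was lost without Sham replicate 4 and without MI replicate 3. Total scaling ended the call of Ifngr2.

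The negative regulators of the signal, 8 genes, held 5 that were higher and 1 that was lower, with a median of 0.43. Socs3, which blocks Jak kinases, stood at 459.6, 485, 584 and 435 in Sham and 1099.6, 918, 1381 and 1257 in MI (log2 difference 1.24 ± 0.14, limma adjusted p = 9.75e-05). Socs1, of the same family, stood at 47.7, 39.9, 62.5 and 55.2 and 127, 73.3, 86.5 and 131 (log2 difference 0.99 ± 0.24, limma adjusted p = 0.00774). Neither gene's groups overlapped. The phosphatases Ptpn6 (0.93 ± 0.16) and Ptpn1 (0.50 ± 0.067) and the Stat inhibitor Pias3 (0.36 ± 0.086) were higher on the log2 scale, and Pias1 was lower (-0.24 ± 0.076). The Pias1 call was lost in 5 of 8 fits that left out 1 library, and its sign turned under total scaling (0.067). Usp18, described above with Isg15, acts at this step too.

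Of the 6 other interferon regulatory factors tested, Irf5 and Irf8 were higher and 0 were lower (0 also at an unadjusted p under 0.05 with limma, edgeR and DESeq2), with a median of 0.069. Irf5 stood at 583, 543, 550.2 and 380.0 in Sham and 1037, 858, 1082 and 1179 in MI (log2 difference 1.02 ± 0.15, limma adjusted p = 0.000432), and its groups did not overlap. Irf8, a factor of myeloid cells, had overlapping groups, 591 to 939 in Sham and 919 to 1536 in MI (log2 difference 0.79 ± 0.19, limma adjusted p = 0.00702). Irf3, which starts interferon production after nucleic acid sensing, ranged over 2926 to 3323 in Sham and 3077 to 3284 in MI (log2 difference 0.029 ± 0.067, limma adjusted p = 0.764). Irf1 ranged over 2748 to 3769.6 and 3254 to 3424 (log2 difference 0.018 ± 0.094, limma adjusted p = 0.896). Under total scaling Irf3 (0.34) and Irf1 (0.33) were called higher. That scaling shifted the median of all loci up by 0.30 and called 44.4% of them higher.

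Genes of the sensing pathway that leads to interferon were mostly higher in MI, 10 of 14 tested, with 1 lower and a median of 0.54. Ikbke, a kinase that activates Irf3 and Irf7, stood at 218, 164, 200.1 and 162 in Sham and 762, 465, 506 and 635 in MI (log2 difference 1.65 ± 0.17, limma adjusted p = 6.09e-05). Tmem173 encodes STING, the adaptor of cytosolic DNA sensing, and stood at 962, 499.9, 631 and 575 in Sham and 1609, 1308, 1320.2 and 1853 in MI (log2 difference 1.22 ± 0.19, limma adjusted p = 0.000657). Tlr8, an endosomal receptor of the Toll-like family, had a log2 difference of 1.05 ± 0.14 (limma adjusted p = 0.000272). In all 3 the MI libraries lay above the Sham libraries. Mavs, the mitochondrial adaptor of Ddx58 and Ifih1, was lower (-0.32 ± 0.11, limma adjusted p = 0.0315), but its groups overlapped and the call was lost in 5 of 8 fits that left out 1 library.

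Of the interferon-gamma programme, 3 of 15 tested genes were higher and 0 lower (4 and 0 with DESeq2, and 4 and 1 at an unadjusted p under 0.05 with limma, edgeR and DESeq2), and the median was 0.12. That share, 20.0% higher, is no larger than over all tested loci. Cxcl10, a chemokine that draws T cells, stood at 65.7, 15.9, 28.4 and 18.9 in Sham and 115, 90.6, 136 and 119 in MI, the largest log2 difference in the lists (2.01 ± 0.38, limma adjusted p = 0.00196). Sham replicate 1 was again the highest Sham library, and all MI libraries exceeded it. Ciita, the switch of class II antigen presentation (0.63 ± 0.22, limma adjusted p = 0.0446), and B2m, the light chain of class I molecules (0.50 ± 0.16, limma adjusted p = 0.028), each lost the call in 5 of 8 fits that left out 1 library. With total scaling 10 of the 15 were called higher, but so were 44.4% of all tested loci.

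A further list of 49 type I interferon-stimulated genes outside the 29 had 35 tested, of which 17 were higher and 2 lower, with a median of 0.22. Apol9b stood at 26.3, 14.8, 13.6 and 17.3 in Sham and 61.6, 47.8, 56.8 and 48.9 in MI (log2 difference 1.56 ± 0.26, limma adjusted p = 0.000824), without overlap. Ifi27l2a stood at 1188, 737, 1096 and 810.4 in Sham and 1649, 1882, 2933 and 1955 in MI (log2 difference 1.13 ± 0.20, limma adjusted p = 0.00116), and Sham replicate 1 was the highest Sham library. Epsti1 was higher by 0.92 ± 0.22 (limma adjusted p = 0.00706) with overlapping groups. Nt5c3 (-0.43 ± 0.091) and the aminopeptidase Lap3 (-0.32 ± 0.086) were lower on the log2 scale, and both calls ended under total scaling. Ifngr2, Stat3, Ptpn1, Pias1, Pias3, Mavs, Lap3 and Nt5c3 were named after their values were seen.

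**Figure D4:**
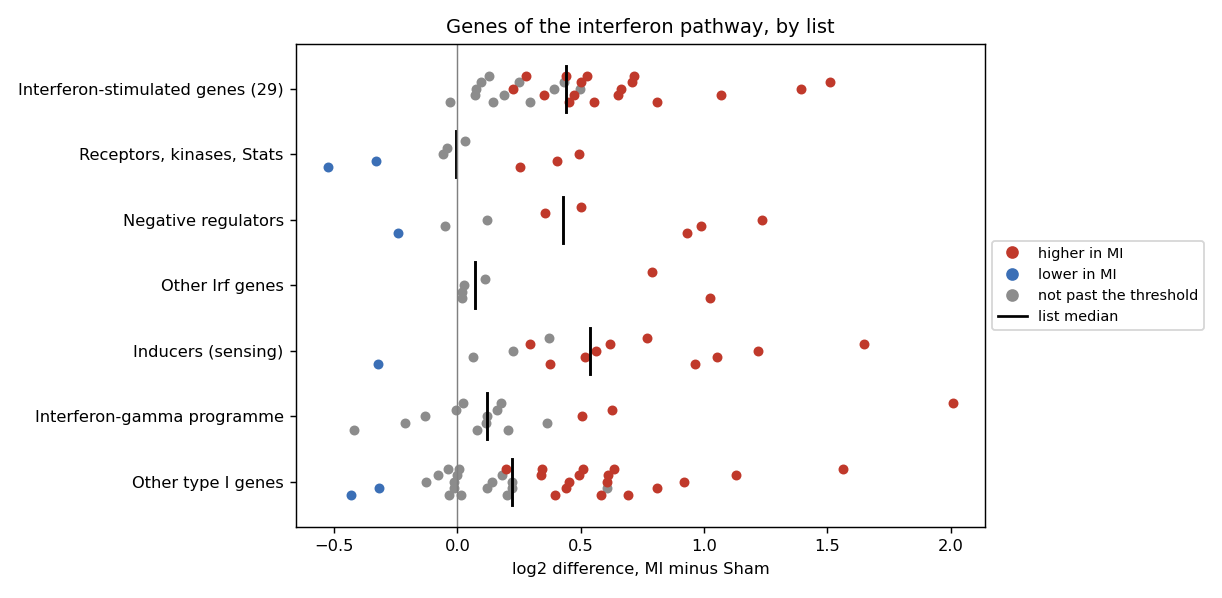
Log2 difference, MI minus Sham, of each tested gene among the 29 interferon-stimulated genes and in the surrounding lists of the interferon pathway, 1 point per gene (red higher and blue lower past the adjusted p of 0.05, grey not), with each list's median as a black bar. The median was 0.44 over the 29 genes, 0.54 for the inducers, 0.43 for the negative regulators, 0.12 for the interferon-gamma programme and -0.0050 for the receptors, kinases and Stats.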

How the data were processed

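Polyadenylated RNA, extracted with Trizol, was sequenced in paired reads of 100 bases in 4 Sham and 4 MI samples of heart, per the labels' protocols. TopHat2 2.0.5, Cufflinks 2.0.2, HTSeq 0.5.4p2, DESeq and build mm9 are named in the submitters' processing notes, without their order or settings. The deposited table holds a normalised signal per Cufflinks locus, not counts. Each value was a whole read count over 1 size factor per sample: whole reads were recovered for all values within 1e-06, with 0.663 to 1.58 normalised reads for 1 read. Positions of exons come from the deposited transcript file (mm9), which gives UCSC identifiers and no symbols. Loci with more than 1 exon were named by matching the lengths and order of their introns to the genes of GENCODE M21. In all, 20409 of 22383 were named, and introns made 1 base too long named 638 (3.13%). Loci that hold more than 1 gene were not used as single genes. RefSeq promoters (GRCm38.p6) were matched by symbol.

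The comparison used limma-trend (limma 3.58.1, R 4.3.3) on log2(value + 1) with both groups, no covariate and loci of a mean of at least 10, 2-sided, threshold 0.05 after Benjamini-Hochberg over 19186 loci, and differences are on that scale. edgeR 4.0.16 and DESeq2 1.42.0 were run on recovered reads as alternatives. All members are described. From each surrounding list, the 3 called genes with the largest differences were named, with Ifnb1, Ifng, Ifnar1, Ifnar2, Irf1, Irf3, Cxcl10 and Siglech wherever they had a locus of their own, and a gene of that rule is not reported here. Alternatives were other pseudocounts, filters, scalings and tools, a replicate block, and leaving out each library. The members and lists were chosen with earlier results of these data known. The labels do not say whether replicates came from separate animals, so p-values measure only the spread between these samples, which may be technical.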

Additional observations from a re-analysis of the deposited data

Results flagged for a closer look

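Of 78 groups of 4 libraries checked, 2 held a library far from the other 3, and chance flags about 1 in 20 groups. Ifit3 stood at 1867 normalised reads in Sham replicate 1, against 1184 to 1237 in the other Sham libraries. Parp14 stood at 4599 in Sham replicate 3, against 5318 to 5413 in the others.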

How the results depend on the processing

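Among 609 values of single interferon-stimulated genes under an alternative, 561 kept their direction and side of the threshold, 33 passed it newly, 10 lost it and 5 turned sign. Total scaling gave 27 members higher, a median of 0.75 and 8525 loci higher and 1498 lower. In the lists it gave 5 receptors, kinases and Stats higher and 1 lower, 5 other regulatory factors and 10 gamma genes higher, 31 further type I genes higher and 0 lower, and 0 lower negative regulators and inducers. Total scaling without mitochondrial reads gave a median of 0.63, 6368 loci higher and 2145 lower, 1 receptor-list gene lower, 4 regulatory factors and 6 gamma genes higher, 1 further type I gene lower, and 0 lower negative regulators and inducers. Upper-quartile scaling called 1 gamma gene lower. Deviations of same-numbered samples correlated at 0.15, 0.27, 0.16 and -0.00092, with replicates 2 and 3 closest to their own number, so the numbers were not taken to pair the samples. With a replicate block 18 members (Bst2 added) were higher and 1 gamma gene lower. The share of all loci called is not given here for that block or for the fits that leave out 1 library. Leaving out 1 library in turn gave 15 to 20 members higher, a median of 0.33 to 0.53, 0 to 1 lower among the negative regulators and among the inducers, 1 to 4 gamma genes higher and 0 to 1 lower. Total scaling turned Ifi35 (0.28, and 0.16 without mitochondrial reads) and Pias1 (0.067). Leaving out 1 library turned uncalled differences of Ifi35 (-0.16 to 0.12), Rsad2 (-0.071 to 0.22) and Cmpk2 (-0.038 to 0.14) without Sham replicate 3, Irf3 (-0.00091 to 0.060) without Sham replicate 2, and Irf1 (-0.068 to 0.084) without Sham replicate 4. The cause was not tested, save that both total scalings shift all loci upward. Depth limits the interferon ligands, at 0 to 3 reads a library.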

Other observations

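Of the 4 Toll-like receptors of nucleic acid on the list of inducers, Tlr7, Tlr8 and Tlr9 were higher in MI and Tlr3 did not pass. Tlr3, Tlr7 and Tlr8 recognise RNA, Tlr9 recognises DNA, and Unc93b1 carries them to endosomes. Tlr3 stood at 1927, 1712, 1609 and 1473 normalised reads in Sham and 1982, 2009, 1874 and 1959 in MI, with overlap (log2 difference 0.23 ± 0.090, limma adjusted p = 0.0665). Tlr7 stood at 500.2, 627, 466 and 505 normalised reads in Sham and 666, 777, 1046 and 760.0 in MI (log2 difference 0.62 ± 0.15, limma adjusted p = 0.00714). Tlr9 stood at 279, 202, 181 and 225 and 504, 296, 382 and 587 (log2 difference 0.96 ± 0.22, limma adjusted p = 0.005). Unc93b1 stood at 3014, 2308, 2559 and 2069 and 4497, 3482, 4251 and 4670.2 (log2 difference 0.77 ± 0.13, limma adjusted p = 0.000847). For Tlr7, Tlr9 and Unc93b1 the MI libraries lay above the Sham libraries, and MI replicate 2 was the lowest MI library for Tlr9 and Unc93b1. The signalling partners of several of these receptors, Myd88 (0.30 ± 0.088) and Irak4 (0.52 ± 0.091) also rose on the log2 scale. Macrophages are known to express these receptors, and the part of the higher macrophage marker level in MI was not tested. These genes were named after their values were seen.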
